A study of Mus musculus with 120 samples.

Results

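Hypothalamus of wild-type C57BL/6J mice that carried HDAC4CA was compared with hypothalamus of wild-type mice that carried the fluorescent protein mCherry. The libraries were chosen by their titles: 4 of HDAC4CA and 4 of mCherry hypothalamus, 8 of the 120 libraries of the series. All 8 mice had the wild-type genotype, had received an adeno-associated virus by injection behind the eye 3 weeks before dissection, and were sampled at ZT12.5, shortly after lights off. HDAC4CA is a form of the histone deacetylase HDAC4, and the labels do not say which change it carries, which promoter drives it or which cells were transduced. The labels give no age or sex. For reference, 3 sets of libraries with the same virus were used: wild-type thalamus and cortex at ZT12.5 (HDAC4CA and mCherry, 4 libraries each), and hypothalamus of Sleepy mice, which carry the Sik3E13∆/+ allele, with HDAC4CA or the control protein eGFP at ZT12.5 and at ZT0.5 (4 libraries each). Wild-type hypothalamus with CREB (4 libraries, ZT12.5) shares the mCherry controls. The study asks how a signalling pathway sets the amount of sleep through transcription.

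HDAC4 belongs to the class IIa histone deacetylases, which have little deacetylase activity of their own and act as corepressors, most prominently of the MEF2 transcription factors. Salt-inducible kinases phosphorylate class IIa enzymes, which then bind 14-3-3 proteins and stay in the cytoplasm, and the unphosphorylated protein enters the nucleus. The same kinases phosphorylate the CRTC coactivators of CREB, a factor that binds cyclic AMP response elements. The hypothalamus holds the neuropeptide neurons that govern feeding, sleep and wakefulness, hormone release and daily rhythm.

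The deposited levels are RPKM, reads scaled to gene length and to library depth, so each level is a share of its own library. The 8 libraries held 18.49 to 24.17 M reads, as recovered from the size of 1 read in the low values. Hypothalamic markers stood at hypothalamic levels: Pmch, the precursor of melanin-concentrating hormone, at 220 to 327 RPKM over the 8 libraries, and the transcription factor Nkx2-1 at 5.12 to 7.26. The thalamic kinase gene Prkcd reached 1.23 at most, against a mean of 76.6 in mCherry thalamus. Calb2, of the same marker list, stood at 51.5 to 65.9 against a mean of 53.5 in mCherry thalamus, so it does not part these regions. The choroid plexus transcript Ttr stood at 0.793 or less in 7 libraries and at 7.47 in mCherry library 3. HDAC4CA library 1 stood apart from the other HDAC4CA libraries in the immediate early genes, and library 4 held 4.61 RPKM of the cortical transporter gene Slc17a7 against 0.868, 0.198 and 0.195 in the others and 0.068 to 0.224 with mCherry. Results that rest on library 1 are given with and without it. Bulk tissue cannot tell a change in RNA per cell from a change in the number of cells of a type. The labels call the samples biological replicates, and whether same-numbered libraries of different regions came from the same mouse is not stated.

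The results turn on the peptide gene Sst, on early response genes such as Fosb and Egr4, and on the potassium channel gene Kcnj9, so their promoters are shown (250 bases before to 50 after the start of the transcript, RefSeq, GRCm38.p6, 5′ to 3′ on the strand of the gene). Sst lies at chr16:23890795-23891094 on the minus strand, with the full cyclic AMP response element TGACGTCA in capitals, 48 bases before the start. Fosb lies at chr7:19309996-19310295 on the minus strand, with the core TGACG of that element (60 bases before the start) and a match to the EGR site GCGNGGGCG (50 bases before the start) in capitals. Egr4 lies at chr6:85513540-85513839 on the minus strand, with the same core, read on the other strand as CGTCA, in capitals 177 and 109 bases before the start. Kcnj9, which fell, lies at chr1:172329273-172329572 on the minus strand, with a match to the MEF2 site in capitals, 118 bases before the start.
Sst: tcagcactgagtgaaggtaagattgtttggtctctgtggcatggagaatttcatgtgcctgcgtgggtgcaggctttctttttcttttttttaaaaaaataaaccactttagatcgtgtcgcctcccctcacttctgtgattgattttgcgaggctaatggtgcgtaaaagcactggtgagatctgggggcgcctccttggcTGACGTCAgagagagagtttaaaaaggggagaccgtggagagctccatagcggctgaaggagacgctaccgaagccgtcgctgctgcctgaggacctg
Fosb: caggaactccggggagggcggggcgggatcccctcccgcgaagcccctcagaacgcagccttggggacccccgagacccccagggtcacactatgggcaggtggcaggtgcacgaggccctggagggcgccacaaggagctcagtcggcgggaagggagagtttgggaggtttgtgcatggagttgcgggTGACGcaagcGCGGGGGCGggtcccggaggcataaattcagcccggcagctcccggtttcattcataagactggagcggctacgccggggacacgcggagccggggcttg
Egr4: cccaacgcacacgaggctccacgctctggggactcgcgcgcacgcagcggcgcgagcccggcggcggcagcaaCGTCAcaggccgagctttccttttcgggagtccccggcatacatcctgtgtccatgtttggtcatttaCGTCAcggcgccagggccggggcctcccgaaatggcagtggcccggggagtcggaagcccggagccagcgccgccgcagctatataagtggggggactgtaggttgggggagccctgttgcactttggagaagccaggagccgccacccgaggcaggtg
Kcnj9: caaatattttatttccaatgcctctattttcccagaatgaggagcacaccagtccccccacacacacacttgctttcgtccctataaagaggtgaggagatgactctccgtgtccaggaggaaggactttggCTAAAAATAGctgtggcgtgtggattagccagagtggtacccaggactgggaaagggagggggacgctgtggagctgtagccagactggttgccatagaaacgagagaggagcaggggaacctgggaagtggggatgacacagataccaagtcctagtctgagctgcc

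Both strands were searched for the full element, its core (which the full element contains), the EGR site, the serum response element and the MEF2 site. Of 32851 promoter windows of 27025 gene symbols, the full element is in those of 2.03% of the symbols, the core in 23.0%, the EGR site in 6.27%, the serum response element in 1.81% and the MEF2 site in 3.7%. Of the 16 named genes called in the comparison, 12 had a window: Sst alone held the full element, 6 held the core (Hdac4, Sst, Ptprn, Igsf1, Ap1s1 and Dlk1), Kcnk2 held the EGR site and Kcnj9 the MEF2 site. Of the 23 immediate early genes, 17 had a window, and 13 of these held the core in at least 1 window. A match of letters describes the sequence and shows no binding.

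HDAC4CA and mCherry hypothalamus differed in 21 of 16418 genes tested (0.128%; limma, adjusted p under 0.05 after Benjamini-Hochberg adjustment), 14 higher (0.0853%) and 7 lower (0.0426%) with HDAC4CA. The feeding peptide gene Agrp, the somatostatin gene Sst, the kinase gene Ptk2b and Hdac4 itself were the named genes with the largest rises, and the neuronal protein gene Nrep the named gene with the largest fall. In all 21 the 4 deposited values of one group lay beyond the 4 of the other, as they did in 1.66% of all genes tested upward and 5.69% downward. Over all genes the median log2 fold change was -0.0118, and 1759 genes had an unadjusted p under 0.05.

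Hdac4 was the check of the virus. It stood at 5.82, 4.89, 5.60 and 5.17 RPKM in HDAC4CA libraries 1 to 4 and at 3.02, 3.04, 3.39 and 3.20 with mCherry. The groups did not overlap and the highest value was that of library 1, which stands apart in other genes. The rise was 1.71-fold (log2 0.78 ± 0.06 SE, adjusted p = 0.00093, limma). Reads from the construct count only as far as they map to the mouse gene, so endogenous and delivered Hdac4 were not separated. Gm26720, an annotated long noncoding transcript within Hdac4 on the opposite strand, rose from 0.331 ± 0.0694 to 1.02 ± 0.159 RPKM (SD, n = 4; log2 1.40 ± 0.16, adjusted p = 0.0067, limma). Whether reads were counted by strand is not stated, and its reads cannot be told from those of Hdac4.

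**Figure D1:**
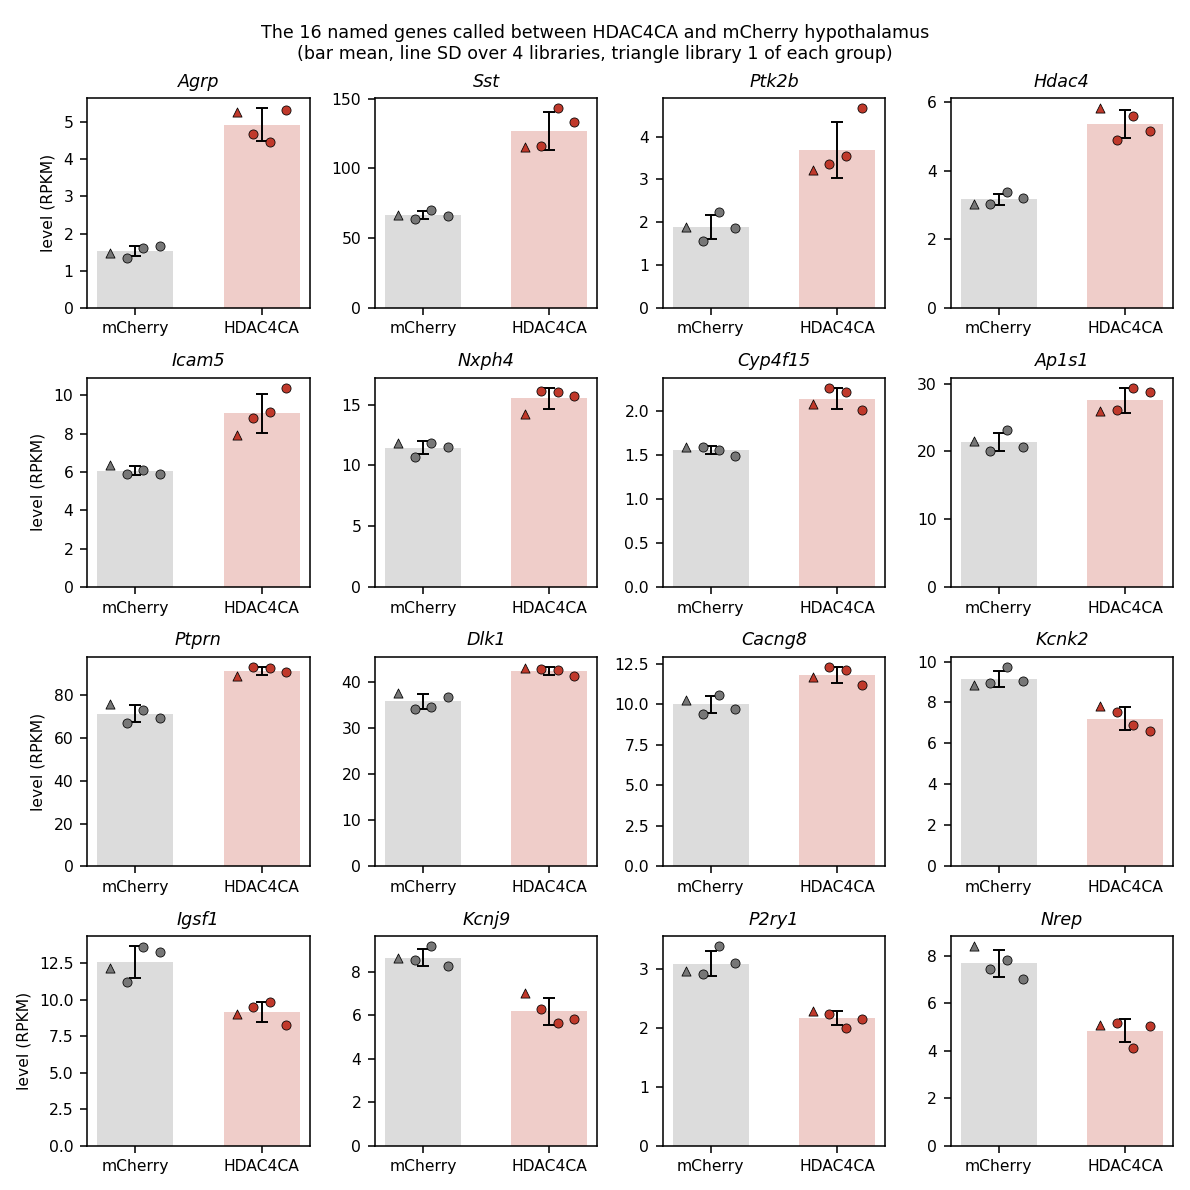
Deposited level (RPKM, from 0) of the 16 named genes called between the groups, in 4 mCherry and 4 HDAC4CA hypothalamus libraries each (bar mean, line SD, triangle library 1). In each panel the points of one group lie beyond those of the other, as for Agrp at 1.35 to 1.67 against 4.46 to 5.34 RPKM.

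Agrp encodes agouti-related peptide, which blocks melanocortin receptors and drives feeding, and its neurons lie in the arcuate nucleus. It stood at 5.27, 4.68, 4.46 and 5.34 RPKM with HDAC4CA and at 1.47, 1.35, 1.6 and 1.67 with mCherry. All 4 HDAC4CA libraries lay well above all controls, and the fold change was 3.18 (log2 1.67 ± 0.09 SE, 95% interval 1.47 to 1.86, adjusted p = 2.7e-05, limma). The annotated span of Agrp (8:105566698 to 105637393, minus strand, GRCm38) overlaps 5 other genes, and means of 102 and 32.4 reads per library lay behind the levels. Npy encodes neuropeptide Y, which the same arcuate neurons release. Npy stood at 49.2, 27.3, 31.0 and 36.8 RPKM with HDAC4CA and 18.7, 11.2, 19.1 and 15.8 with mCherry. These groups did not overlap either, yet the spread was wide and Npy missed the threshold (log2 1.18 ± 0.22, adjusted p = 0.13, limma).

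Sst encodes somatostatin, an inhibitory neuropeptide that also restrains growth hormone release from the pituitary. It stood at 115, 116, 143 and 133 RPKM with HDAC4CA and at 66.7, 63.7, 70.3 and 65.6 with mCherry, where the controls varied little. Sst rose 1.94-fold (log2 0.96 ± 0.08, 95% interval 0.78 to 1.13, adjusted p = 0.0013, limma). The gene lies at 16:23889573 to 23890958 on the minus strand and overlaps no other annotated gene. Agrp, Sst and Hdac4 kept their calls under all 18 alternative settings, 8 of which left out a library, with adjusted p of up to 0.00086, 0.019 and 0.013 (limma). Dlk1, which encodes a membrane protein with EGF-like repeats, was higher by 0.28 ± 0.04 on the log2 scale (42.4 ± 0.812 against 35.8 ± 1.62 RPKM, SD, n = 4; adjusted p = 0.039, limma).

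Beyond Agrp, Hdac4 and Sst, 8 named genes rose, of which Ptprn had the smallest p. Ptprn encodes a receptor-type phosphatase homologue of dense-core vesicles, the organelles that store neuropeptides. Ptprn stood at 89.1, 93.1, 92.6 and 91.0 RPKM with HDAC4CA and at 76.0, 67.1, 73.2 and 69.6 with mCherry. The groups were parted by a narrow gap in a highly expressed gene, and the rise was 1.31-fold (log2 0.39 ± 0.04, adjusted p = 0.005, limma). Gm28294, an annotated antisense transcript that overlaps Ptprn, rose alongside it by 0.44 ± 0.05, and its reads may be those of Ptprn. Nxph4, which encodes a neurexophilin, a secreted ligand family of the presynaptic neurexins, stood at 14.2, 16.1, 16 and 15.7 RPKM against 11.8, 10.7, 11.8 and 11.5 (log2 0.47 ± 0.06, adjusted p = 0.011, limma). Icam5, the telencephalin adhesion molecule of dendrites, stood at 7.92, 8.82, 9.14 and 10.4 RPKM against 6.39, 5.91, 6.11 and 5.88 (log2 0.60 ± 0.09, adjusted p = 0.034, limma). Both moved in all 4 libraries, library 1 being the lowest of the HDAC4CA values.

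Ptk2b encodes PYK2, a calcium-activated tyrosine kinase related to focal adhesion kinase. It stood at 3.22, 3.35, 3.54 and 4.66 RPKM with HDAC4CA and 1.89, 1.56, 2.23 and 1.87 with mCherry. Library 4 was the highest, the groups did not overlap, and the rise was 1.95-fold (log2 0.96 ± 0.13, adjusted p = 0.031, limma). The remaining rises were smaller. Ap1s1, a subunit of the clathrin adaptor AP-1 of the trans-Golgi network, rose by 0.40 ± 0.06 on the log2 scale (adjusted p = 0.034). Cacng8, an auxiliary subunit of AMPA receptors, rose by 0.27 ± 0.04 (adjusted p = 0.034), and Cyp4f15, a cytochrome P450 of fatty acid and eicosanoid hydroxylation, by 0.47 ± 0.07 (adjusted p = 0.037, limma).

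Of the 5 named genes that fell with HDAC4CA, 2 encode potassium channels, 1 a purine receptor and 2 other proteins. Kcnj9, which encodes the GIRK3 subunit of G protein-gated potassium channels, stood at 7.02, 6.30, 5.64 and 5.82 RPKM against 8.66, 8.55, 9.18 and 8.27 with mCherry. All 4 values lay below the controls, with library 1 the nearest to them (log2 -0.45 ± 0.06, adjusted p = 0.018, limma). Kcnk2, the background potassium channel TREK-1, changed by -0.31 ± 0.05 (7.21 ± 0.56 against 9.14 ± 0.401 RPKM, SD, n = 4; adjusted p = 0.047, limma). P2ry1, a G protein-coupled receptor for ADP, stood at 2.28, 2.23, 2.00 and 2.14 RPKM against 2.97, 2.91, 3.38 and 3.09 (log2 -0.46 ± 0.07, adjusted p = 0.031, limma). The P2ry1 groups were well parted for a gene of low level.

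Nrep, the gene of the neuronal regeneration-related protein (also P311), stood at 5.08, 5.16, 4.10 and 5.05 RPKM with HDAC4CA and 8.40, 7.46, 7.83 and 7.04 with mCherry. Library 3 was the lowest, and the change of -0.62 ± 0.08 on the log2 scale (adjusted p = 0.018, limma) was the deepest among the named genes. Igsf1, an immunoglobulin-superfamily membrane protein whose loss in humans causes central hypothyroidism, stood at 9.05, 9.50, 9.87 and 8.30 RPKM against 12.2, 11.2, 13.6 and 13.3 (log2 -0.41 ± 0.06, adjusted p = 0.034, limma). Its groups did not overlap.

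The remaining called rows carried symbols outside the naming rule and are named for completeness, having been seen first. Gm22721, annotated as a miRNA within Mex3d, changed by -0.66 ± 0.06 on means of 8.97 and 15.2 reads per library, and a polyadenylated library does not measure mature miRNAs. Gm26527, a long noncoding transcript that overlaps Arsb, changed by -0.32 ± 0.04, and RP24-329C11.11, which the annotation used here does not hold, by 0.92 ± 0.13. Without mCherry library 1, 2, 3 or 4, 5, 5, 4 and 6 of the 16 named genes stayed called, and without HDAC4CA library 1, 2, 3 or 4, 16, 6, 7 and 8 did. The log2 values of Nrep moved only from -0.66 to -0.54 and those of Kcnj9 from -0.49 to -0.40 over the 18 settings, with adjusted p of up to 0.095 and 0.1, and the highest adjusted p of any of the 16 was 0.2 for Kcnk2 (limma).

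**Figure D2:**
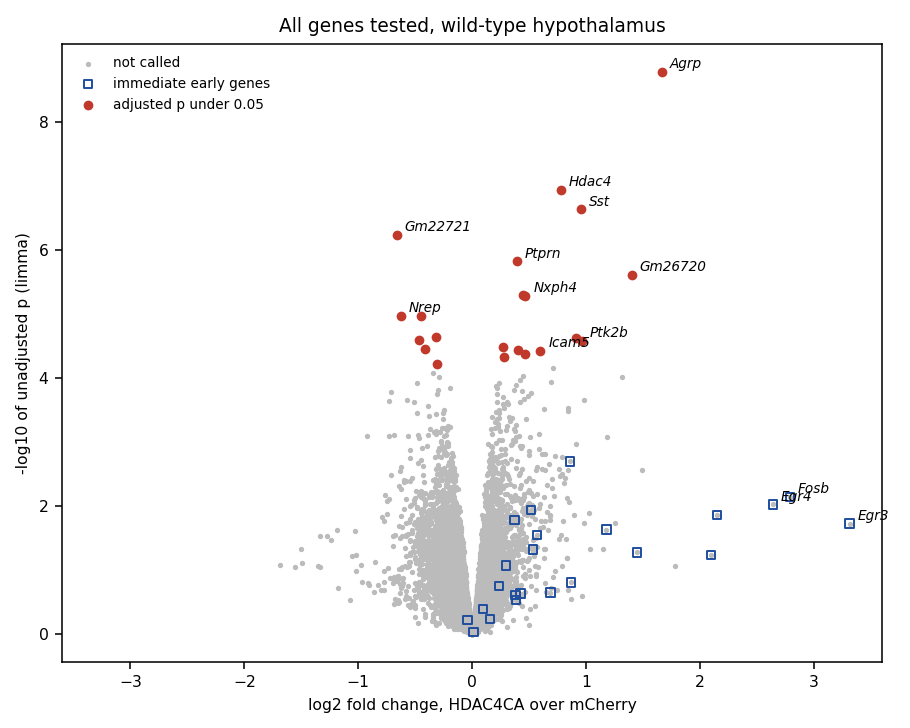
Log2 fold change of HDAC4CA over mCherry against -log10 of the unadjusted limma p for the 16418 genes tested in wild-type hypothalamus. Red points are the 21 called genes, and open squares, the immediate early genes, reach log2 3.31 (Egr3) without passing the threshold.

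The 10 named genes next in order missed the threshold. Vgf, the precursor of secretory granule peptides that responds to neuronal activity, stood at 67.0, 85.2, 112 and 108 RPKM with HDAC4CA and 41.5, 36.0, 35.5 and 36.6 with mCherry. The groups were far apart but the HDAC4CA libraries were spread widely, library 1 being the lowest (log2 1.32 ± 0.18, adjusted p = 0.062, limma). Without library 1 Vgf was called (log2 1.48 ± 0.11, adjusted p = 0.0023, limma). Values above the controls were also seen for Wfs1, a protein of the endoplasmic reticulum (log2 0.44 ± 0.07), the GABA-A receptor subunit gene Gabre (0.38 ± 0.07), the kinase gene Camk1g (0.24 ± 0.04), the receptor gene Tnfrsf8 (0.42 ± 0.07), the phospholipase D family gene Pld3 (0.22 ± 0.04) and Plppr2 (0.21 ± 0.04). Values below were those of the small heat shock protein gene Cryab (-0.35 ± 0.06), Serinc5 (-0.29 ± 0.05) and the copine gene Cpne9 (-0.49 ± 0.08). The adjusted p of these 10 ran from 0.06 to 0.07 (limma), and in none did the groups overlap. That held for 1.66% of all genes tested upward and 5.69% downward. The 10 were picked by their small p, which favours groups that do not overlap.

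Immediate early genes are transcribed within minutes of synaptic or growth factor signals and include the FOS, JUN and EGR transcription factors and effectors such as Arc. Of 23 tested, 22 had a positive log2 fold change, with a median of 0.53 against -0.0118 over all genes, and 0 were called by limma or by voom on the recovered reads, with 10 at an unadjusted p under 0.05 (0.128% of all genes were called). In several of them library 1 differed from libraries 2 to 4. Egr3 stood at 0.359, 10, 11.3 and 11.5 RPKM in HDAC4CA libraries 1 to 4 and at 0.624, 0.333, 0.250 and 0.518 with mCherry. Libraries 2 to 4 were far above the controls and library 1 among them. Egr1 stood at 1.76, 25.4, 26.7 and 27.1 RPKM against 3.48, 4.35, 2.72 and 2.42, and Fosb at 0.236, 3.41, 2.82 and 3.18 against 0.156, 0.197, 0.194 and 0.139. Egr4 stood at 0.521, 6.61, 5.29 and 5.19 RPKM against 0.390, 0.417, 0.447 and 0.512. In each of these genes libraries 2 to 4 resembled one another and library 1 resembled the controls or lay just beyond them.

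**Figure D3:**
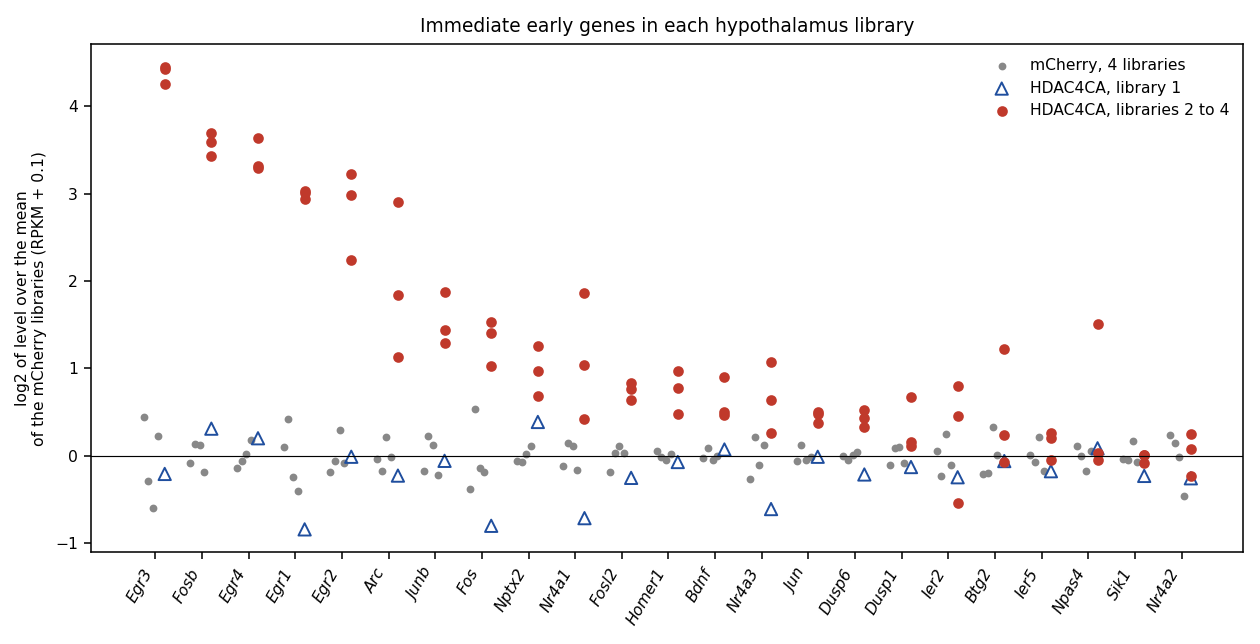
Log2 of each library's level over the mean of the mCherry libraries (RPKM + 0.1) for 23 immediate early genes in hypothalamus, with mCherry in grey, HDAC4CA library 1 as open triangles and libraries 2 to 4 in red. Triangles lie near 0 while red points reach above 4 for Egr3.

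In library 1, 3 of the 23 genes stood above all mCherry libraries, 12 below all of them and 8 within their range, and it was the lowest HDAC4CA library for 20 of the 23. In libraries 2, 3 and 4 there were 18, 17 and 22 genes above all controls. Over the deposited values of all 16418 genes, library 1 was above all controls for 19.1% and below all for 25.2%. Libraries 2, 3 and 4 were above all controls for 17.6%, 17.5% and 10.1%, and below all for 26.9%, 31.3% and 46.0%. Over all genes the lowest HDAC4CA library was most often library 4 (43.2%), with library 1 at 21.4%. Library 1 of the other regions was again low: it was the lowest HDAC4CA library for 18 of 23 early genes in thalamus and 21 of 23 in cortex. Egr3 stood at 1.04, 2.14, 4.76 and 5.89 RPKM in HDAC4CA thalamus, in library order, against 0.482 to 0.789 with mCherry. In cortex it stood at 11.9, 23.3, 42.2 and 54.2 against 15.5 to 23.3. Library 1 also differed in the summed haemoglobin and red cell markers (100 RPKM against 39.2 to 56.5 in HDAC4CA libraries 2 to 4 and 22.3 to 48.9 with mCherry) and in the summed cholesterol synthesis genes (161 RPKM against 204 to 221 and 200 to 219). The part of these in the early gene values was not tested.

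Without library 1, a setting chosen after seeing the data, 171 of 16421 genes were called (1.04%), 136 higher (0.828%) and 35 lower (0.213%), and all 21 of the genes called with all libraries were among them. Of the 23 early genes 12 were then called, all higher, with a list median of 0.79. Library 1 was singled out because these same genes were low in it. Their rises and adjusted p without it therefore follow in part from that choice and are descriptive. Egr3 rose by 4.47 ± 0.25 on the log2 scale (adjusted p = 0.00046), Fosb by 3.62 ± 0.13 (1e-06), Egr4 by 3.46 ± 0.12 (9.3e-07), Egr1 by 3.07 ± 0.20 (0.0022) and Egr2 by 2.86 ± 0.23 (0.00063; adjusted p, limma). Junb, of the AP-1 complex, rose by 1.59 ± 0.18 and Fosl2 by 0.79 ± 0.10. Effector genes called alongside were Nptx2, a secreted pentraxin of excitatory synapses (log2 1.02 ± 0.14), the synaptic scaffold gene Homer1 (0.79 ± 0.12) and the neurotrophin gene Bdnf (0.67 ± 0.12). Fos itself missed the threshold (log2 1.41 ± 0.25, adjusted p = 0.067, limma), and so did Arc (2.01 ± 0.42, adjusted p = 0.11) and Nr4a1 (1.16 ± 0.34, adjusted p = 0.22). Npas4 (0.54 ± 0.37), Ier2 (0.29 ± 0.30) and Sik1 (0.03 ± 0.06) were not called.

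The neuropeptide list of sleep and wake systems held 21 tested genes, 16 positive and 5 negative, against 45.2% positive over all genes. Its median log2 fold change was 0.18. Sst was called, and 9 of the list had an unadjusted p under 0.05, against 1759 of all 16418 genes. By voom, which called more genes in total than limma, Sst, Gal and Pdyn were called. Gal, the galanin precursor, stood at 23.4, 24.6, 32.5 and 26.2 RPKM with HDAC4CA and 17.2, 17.4, 17.1 and 20.7 with mCherry. The Gal groups did not overlap, but the gene missed the threshold (log2 0.59 ± 0.12, adjusted p = 0.13, limma). Pdyn, the prodynorphin gene, was at 0.27 ± 0.05 (adjusted p = 0.076, limma). Without library 1, 5 of the list were called, all higher: Sst, Gal (0.66 ± 0.11), Penk, the proenkephalin gene (0.47 ± 0.05), Tac1, the substance P precursor (0.32 ± 0.06), and Pdyn (0.27 ± 0.05). Over all genes, 0.828% were called higher in that setting. The wake peptide genes Hcrt (orexin) and Pmch were not called, at 44.6 to 55.7 and 237 to 320 RPKM with HDAC4CA against 23.0 to 73.2 and 220 to 327 with mCherry.

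In the melanocortin and feeding list, Agrp was the 1 called of 13, with a list median of 0.03. Pomc, whose peptides oppose Agrp at the melanocortin receptors, stood at 8.48, 18.9, 20.4 and 17.1 RPKM with HDAC4CA and 14.5, 21.1, 29.9 and 22.7 with mCherry. The Pomc groups overlapped (log2 -0.44 ± 0.33, adjusted p = 0.7, limma). The ghrelin receptor gene Ghsr (-0.21 ± 0.09) and the neuropeptide Y receptor gene Npy2r (0.16 ± 0.09) were not called. Among 7 arcuate markers tested, Agrp and Npy were the 2 with positive values and the median was -0.23. Ghrh, the growth hormone-releasing hormone gene of the same nucleus, stood at 2.36, 2.90, 1.89 and 2.16 RPKM against 3.62, 2.90, 4.24 and 3.29 (log2 -0.54 ± 0.13, adjusted p = 0.16, limma).

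In the somatostatin list the receptors were not called: Sstr2 was at 0.47 ± 0.21 (2.80, 3.19, 4.79 and 5.36 RPKM against 2.71 to 2.97, so high in libraries 3 and 4), Sstr3 at 0.23 ± 0.13 and Sstr4 at -0.14 ± 0.11. Of 8 releasing and magnocellular hormone genes Sst was the 1 called. Avp, the vasopressin gene, stood at 183, 264, 184 and 148 RPKM with HDAC4CA and 117, 80.2, 117 and 107 with mCherry. The Avp groups did not overlap, though Avp missed the threshold (log2 0.91 ± 0.18, adjusted p = 0.15, limma). Th, of catecholamine synthesis, was at 0.83 ± 0.23 (adjusted p = 0.29, limma). Factors of hypothalamic identity showed 0 of 23 called by limma or voom (3 at an unadjusted p under 0.05), a median of 0.00 and values from -0.35 to 0.28. The members with the smallest p were Dlx2 (-0.32 ± 0.11), Dlx1 (-0.27 ± 0.10), Tbx3 (-0.24 ± 0.10) and Foxb1 (-0.20 ± 0.10).

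**Figure D4:**
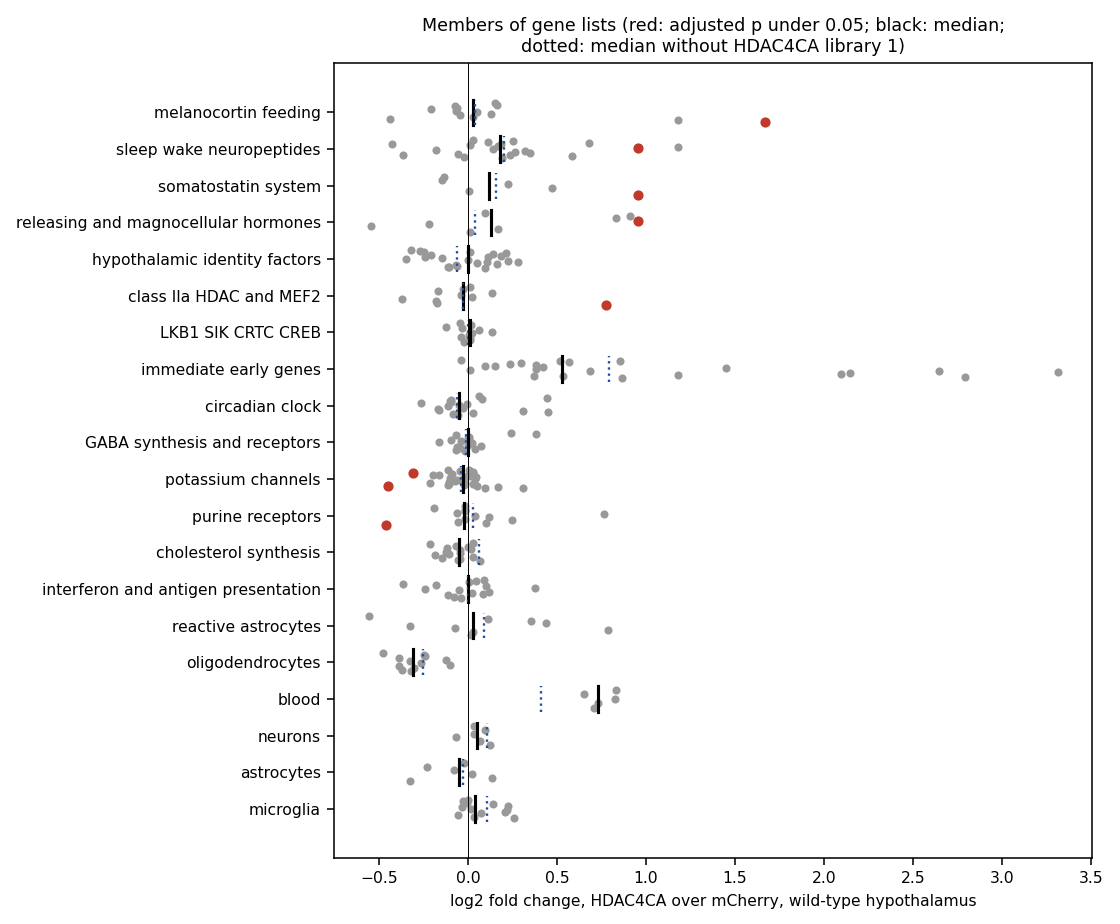
Log2 fold change of the tested members of 20 gene lists in wild-type hypothalamus (grey not called, red adjusted p under 0.05; solid line median, dotted line median without HDAC4CA library 1). The immediate early genes have a median of 0.53, the oligodendrocyte markers all lie below 0 with a median of -0.31, and most other lists centre near 0.

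Of 10 class IIa deacetylase and MEF2 genes, Hdac4 was called and 9 were not. The other members with small p all pointed down: Hdac9, at 1.65, 1.51, 1.48 and 1.5 RPKM against 1.9, 2.05, 2.09 and 2.21 (log2 -0.37 ± 0.08, adjusted p = 0.12, limma), Hdac5 (-0.18 ± 0.05, adjusted p = 0.23) and Mef2a (-0.17 ± 0.06, adjusted p = 0.38). Hdac9 was called by voom, which called more genes in total than limma. The groups did not overlap downward in 4 of the 10 genes, these 3 among them, against 5.69% of all genes. Of the 12 genes from LKB1 through the salt-inducible kinases to CRTC and CREB, 0 were called by limma or voom (1 at an unadjusted p under 0.05) and values ran from -0.12 to 0.14, with Creb1 at -0.12 ± 0.07, the coactivator gene Crtc1 at 0.14 ± 0.05, Stk11 (LKB1) at -0.02 ± 0.04 and Sik3 at 0.02 ± 0.04. Of 19 clock genes 0 were called by limma or voom with all libraries (4 at an unadjusted p under 0.05) and 2 without library 1, Per1 and Bhlhe40. Per1 stood at 6.20, 11.3, 9.30 and 9.08 RPKM against 5.70 to 7.87, and Bhlhe40 at 7.73 in library 1 and 10.6 to 12 in the others against 7.35 to 7.84. As with the early genes, library 1 lay with the controls. Per2 (0.31 ± 0.13) and Cry1 (-0.17 ± 0.07) were not called.

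Among 34 potassium channel genes, Kcnj9 and Kcnk2 fell, none rose and the median was -0.03. The next by p were Kcnj5 (0.31 ± 0.08) and Kcna4 (-0.22 ± 0.07), neither called. P2ry1 was the 1 called of 13 purine receptor genes, with P2rx5 at 0.76 ± 0.20, P2ry13 at 0.24 ± 0.13 and Adora2a, the adenosine receptor of the sleep-promoting action of adenosine, at -0.19 ± 0.18. Of 17 genes of GABA synthesis and receptors 0 were called by limma (3 at an unadjusted p under 0.05). Gabre and Gabrq were called by voom, which called more genes in total than limma. Gabrq was at 0.24 ± 0.05, Gabra5 at -0.16 ± 0.05 and Gabrb2 at -0.09 ± 0.06. Without library 1 Gabre was called by limma. Cholesterol synthesis (0 of 16 called, median -0.05; Lss -0.12 ± 0.08, Fdps -0.11 ± 0.08) and interferon genes (0 of 15, median 0.00; Rsad2 0.37 ± 0.21, Ifitm3 -0.36 ± 0.25, Usp18 -0.24 ± 0.17) had no calls by limma or voom and 0 at an unadjusted p under 0.05. Without library 1 the median of the cholesterol synthesis genes was 0.06. Of 9 reactive astrocyte genes 0 were called by limma or voom with all libraries (4 at an unadjusted p under 0.05). Serpina3n stood at 14.7, 21.0, 20.4 and 22.4 RPKM against 9.04, 12.5, 12.3 and 12.4 (log2 0.79 ± 0.17, adjusted p = 0.17, limma) and was called without library 1. Osmr (0.35 ± 0.14), Cd44 (-0.32 ± 0.14) and C4b (0.44 ± 0.19) were not.

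All 12 oligodendrocyte markers had negative values (median -0.31, lowest -0.48, highest -0.10) with 0 called by limma or voom (5 at an unadjusted p under 0.05), and their summed level was 406 to 553 RPKM with HDAC4CA and 496 to 651 with mCherry, ranges that overlap. Mbp, the myelin basic protein gene, was at -0.32 ± 0.10 (adjusted p = 0.3, limma). All 5 blood markers had positive values (median 0.73, 0.41 without library 1) with 0 called by limma or voom (1 at an unadjusted p under 0.05). Neuron markers summed to 338 to 376 RPKM against 348 to 371, astrocyte markers to 337 to 358 against 348 to 371 and microglia markers to 96.8 to 119 against 91.8 to 110. Without library 1, Gja1 of 6 astrocyte markers (-0.28 ± 0.05) and Cldn5 of 12 endothelium and pericyte markers (-0.53 ± 0.10) were called lower by limma, against 0.213% of all genes. Of 8 cortex markers tested, 0 were called by limma or voom (2 at an unadjusted p under 0.05), with 4 positive and 4 negative. Cortex markers summed to 36.6 to 39.5 RPKM against 34.2 to 35.6, ranges that do not overlap. Most of that sum was Rasgrf2, at 28.2 to 30.7 RPKM against 25.7 to 27.9. Rasgrf2 stood higher in mCherry hypothalamus (mean 27.0) than in mCherry cortex (15.7), so the sum does not measure cortical tissue. HDAC4CA library 4, the highest in Slc17a7, was also the highest for Ptk2b and Icam5, which stood far higher in cortex. Without library 4 both stayed called, Ptk2b at 0.83 ± 0.10 and Icam5 at 0.51 ± 0.06 (adjusted p = 0.024 for each, limma). Each of these genes stayed called in 2 of the 8 fits that left out a library. Pituitary markers summed to 0.917 to 4.87 RPKM against 0.52 to 8.34 and choroid plexus markers to 6.51 to 7.30 against 5.64 to 15.2. The part of these markers in the called genes was not tested.

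The HDAC4CA effect was next compared with that in wild-type thalamus and cortex, in 1 model with the difference of effects as the tested term. Of 16695 genes, 258 differed between hypothalamus and thalamus (1.55%), and of 16360 genes 267 between hypothalamus and cortex (1.63%). The effect was higher in hypothalamus for 0.922% and 0.899% of genes, and lower for 0.623% and 0.733%. In thalamus alone all 10 choroid plexus markers were lower with HDAC4CA (median log2 -1.99), with 0 called. Of 11 hypothalamus markers tested there, 6 were positive and 5 negative, and mCherry thalamus held Pmch at a mean of 63.9 RPKM. The part of tissue content in the differences from thalamus was not tested. Among the 21 genes called in hypothalamus, 6 differed from thalamus (Agrp, Hdac4, Sst, Ptprn, Gm26720 and Gm28294) and, of the 20 that could be tested in cortex alone, 2 from cortex (Sst and Ptk2b). Gm26720 overlaps Hdac4 and Gm28294 overlaps Ptprn, so the 6 are not all separate genes. Agrp stood at 0.551, 0.727, 0.376 and 0.636 RPKM in mCherry thalamus and 0.215, 0.589, 0.374 and 0.421 in HDAC4CA thalamus, near the low end of measurement. The Agrp effect in hypothalamus exceeded that in thalamus by 2.08 ± 0.27 on the log2 scale (adjusted p = 0.0007, limma). In cortex Agrp stood at 0.242 to 0.421 RPKM with mCherry and 0.192 to 0.557 with HDAC4CA, on about 10 reads or fewer in every library. It passed the filter of the joint fit only through its hypothalamus reads, so the effects are not compared there. Npy, uncalled in hypothalamus, went the other way in thalamus (5.90 to 8.05 RPKM with mCherry, 3.07 to 5.05 with HDAC4CA), a difference of effects of 1.89 (adjusted p = 0.0028, limma).

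Sst stood at 33.9 to 45.2 RPKM in mCherry and 40.5 to 48.5 in HDAC4CA thalamus, and at 100 to 121 against 89.3 to 146 in cortex. In both regions the Sst groups overlapped, and the hypothalamic effect was larger by 0.62 ± 0.14 than in thalamus (adjusted p = 0.027) and by 0.82 ± 0.14 than in cortex (adjusted p = 0.0055, limma). Ptk2b, far higher in cortex at 34.6 to 39.9 RPKM with mCherry and 31.0 to 42.8 with HDAC4CA, rose more in hypothalamus by 0.92 ± 0.16 (adjusted p = 0.007, limma). Hdac4 itself rose less in hypothalamus than in thalamus, by -0.71 ± 0.09 (adjusted p = 0.00023), where it reached 7.03 to 7.59 RPKM from 2.53 to 2.84 with mCherry, and Ptprn likewise by -0.52 ± 0.08 (adjusted p = 0.0027, limma). Gal, uncalled in hypothalamus, went from 2.66 to 4.22 RPKM in mCherry thalamus to 9.87 to 11.9 with HDAC4CA, and its effect differed by -1.20 (adjusted p = 0.0028, limma). The fourth library of both cortex groups stood apart: 79 ribosomal protein genes summed to 757 (HDAC4CA) and 819 RPKM (mCherry) there, and to 1810 to 2080 in the other cortex libraries. Without these libraries 213 genes differed between hypothalamus and cortex.

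**Figure D5:**
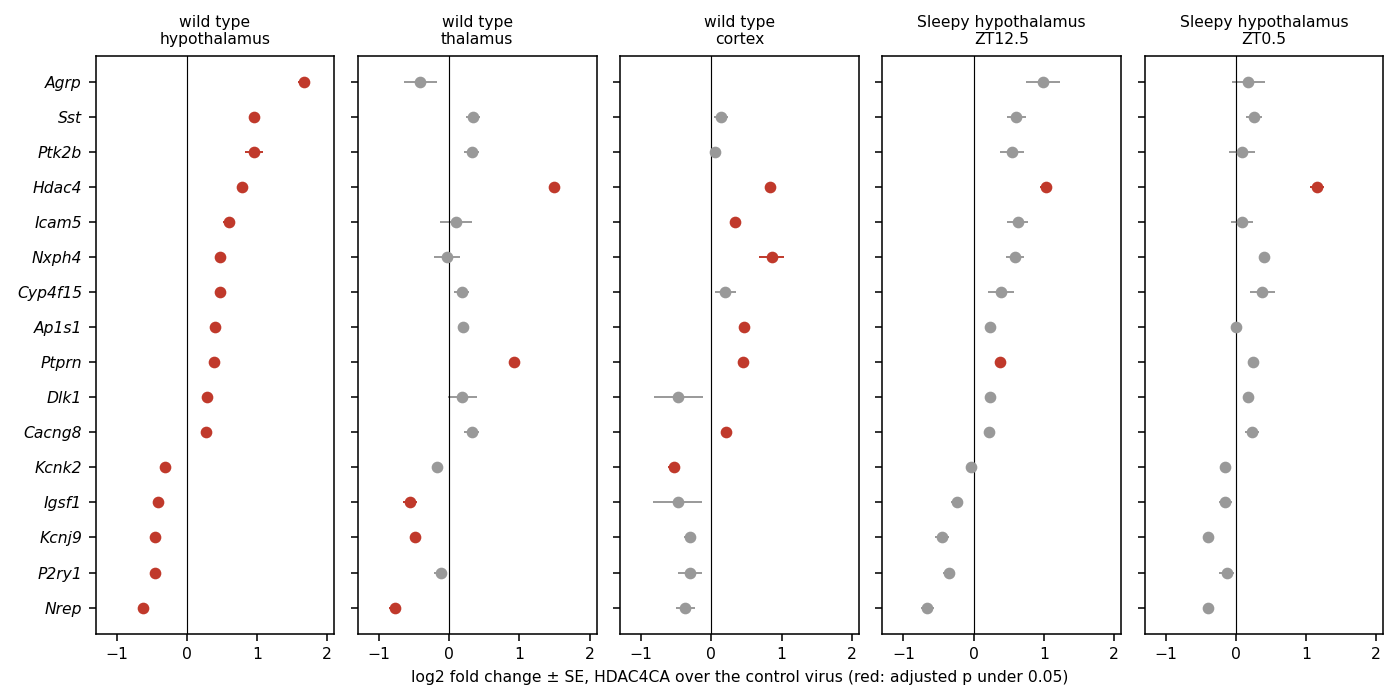
Log2 fold change ± SE of HDAC4CA over the control virus for the 16 named genes called in wild-type hypothalamus, in 5 comparisons (red adjusted p under 0.05, grey not called; Agrp was too low to be tested in cortex alone). Hdac4 is red throughout, while Agrp and Sst are red in wild-type hypothalamus and grey in the other comparisons that tested them.

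In thalamus alone 7 of the 21 genes were called in the same direction and in cortex alone 9 of the 20 tested there (10 in the fit with a replicate block, where Nrep is added), against 7.17% (3.95% higher, 3.22% lower) and 6.51% (3.24% higher, 3.27% lower) of all genes. The delivered gene Hdac4, Ptprn and the transcripts that overlap them, Gm26720 and Gm28294, were in both counts, so not all calls are separate genes. Kcnj9 (-0.48), Nrep (-0.77) and Igsf1 fell in thalamus too, Nxph4 (0.86), Ap1s1 (0.46) and Icam5 (0.34) rose in cortex, and Ptprn rose in both (0.92 and 0.45). The direction was that of hypothalamus for 17 of 21 in thalamus and 19 of 20 in cortex, against 62.6% and 59.7% of all genes tested.

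Sleepy hypothalamus gives independent libraries, with another genotype and another control protein. There, HDAC4CA against eGFP called 11 of 17314 genes at ZT12.5 (0.0635%; 0.052% higher, 0.0116% lower) and 3 of 17084 at ZT0.5 (0.0176%). All 21 genes pointed the same way at ZT12.5 as in the wild type, against 60.9% of all genes, and 4 of them were called, Hdac4 (1.03 ± 0.09), Ptprn (0.38 ± 0.05), Gm26720 and Gm28294. Hdac4 is the gene delivered, reads of Gm26720 cannot be told from those of Hdac4, and reads of Gm28294 may be those of Ptprn. The 4 calls are therefore not separate genes. At ZT0.5, 20 of 21 had the same direction, against 60.5% of all genes, and Hdac4 (1.15 ± 0.10) and Gm26720 were called. Agrp was at 2.90, 2.34, 4.58 and 3.44 FPKM with HDAC4CA and 1.26, 1.33, 2.38 and 1.76 with eGFP at ZT12.5 (log2 0.99 ± 0.24, adjusted p = 0.27, limma), and the lowest HDAC4CA value lay just under the highest eGFP value. At ZT0.5 Agrp was at 0.18 ± 0.23. Sst was at 0.61 ± 0.13 and 0.26 ± 0.11 at the 2 times, and Nrep at -0.66 ± 0.09 (adjusted p = 0.051, limma) and -0.39 ± 0.08. Npy, uncalled in the wild type, was called in Sleepy mice at ZT12.5, at 14.8, 17.2, 24.0 and 20.3 FPKM with HDAC4CA against 8.18, 7.35, 9.00 and 7.69 (log2 1.26 ± 0.15, adjusted p = 0.04, limma). When any library was left out, 2 to 5 genes were called in total. Npy stayed called in 2 of these 8 fits (limma adjusted p up to 0.13), Ptprn in 0 and Hdac4 in 8.

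Egr3 was also called in Sleepy hypothalamus at ZT12.5, at 4.49, 3.29, 7.05 and 7.39 FPKM with HDAC4CA against 0.521, 0.950, 0.348 and 0.473 with eGFP (log2 3.11 ± 0.33, adjusted p = 0.03, limma), and stayed called in 2 of the 8 fits that left out a library. All 4 Egr3 values were high there, but Egr1 stood at 9.07, 3.21, 3.03 and 3.6 FPKM against 2.17 to 3.96, high in a single library. At ZT0.5 Egr3 was at 1.10, 1.72, 6.24 and 0.780 FPKM against 0.373 to 0.879, high in library 3. The HDAC4CA effect itself was tested between the genotypes at ZT12.5, wild type minus Sleepy: 0 of 16945 genes differed in the limma fit, with 760 at an unadjusted p under 0.05. For Agrp the difference was 0.66 on the log2 scale, with an unadjusted 95% interval from 0.07 to 1.26 (adjusted p = 0.99, limma). Genotype, control protein and deposited unit change together in that test and cannot be told apart.

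CREB hypothalamus used the same mCherry controls, so values are set side by side. Agrp stood at 2.22, 2.05, 1.69 and 1.61 RPKM with CREB, Sst at 69.5, 66.9, 66.4 and 65.6, Nrep at 6.95, 6.55, 5.85 and 7.09 and Egr3 at 0.291 to 0.653. These lay near the mCherry values, with Agrp slightly higher and Nrep slightly lower in groups that overlapped. CREB against mCherry called 0 of 16540 genes (limma, adjusted p under 0.05). Creb1 itself, at 4.83 to 5.33 RPKM with CREB and 3.58 to 3.94 with mCherry, was not called there. HDAC4CA against CREB directly called 35 of 16437 genes (0.213%), 27 higher (0.164%) and 8 lower (0.0487%) with HDAC4CA, among them Agrp (1.33, adjusted p = 0.0014) and Sst (0.89, adjusted p = 0.0026), with Creb1 at -0.58 (adjusted p = 0.0049, limma).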

How the data were processed

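Polyadenylated RNA was sequenced per the labels, from kits by TIANGEN (RNA) and NEBNext (Ultra II library). Per the submitters' processing notes, tools were CASAVA 1.9, STAR 2.6.1a, featureCounts and edgeR 3.28.1, with the build GRCm38. The authors deposited 1 table per library with 49585 rows. Values are RPKM in the wild-type libraries used here and FPKM in the Sleepy libraries, per the file headers. Both depend on gene length and on the other genes of a library. The strand setting was not given in the sources used here.

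Low values were whole multiples of 1 read for 94.5% to 95.7% of values of up to 20 reads (tolerance 0.1), which gave depth and reads. Of the 49466 genes kept (26 date-converted and 93 repeated symbols dropped), 95.2% had an exon length (GENCODE M21). TMM factors rescaled each library before values moved to log2(value + 0.1), so folds of low genes are understated. Genes with a mean of at least 10 reads (a mean value of 1 without exon length) were tested with limma 3.58.1 in R 4.3.3 (trend, robust variances, only the libraries compared), with p-values adjusted by Benjamini-Hochberg across every tested gene and a threshold of 0.05. No count test was the main test, since the files hold no counts. The fit was tested on simulated data.

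Named genes were all called genes except Gm and Rik symbols, pseudogenes and unnamed identifiers, Hdac4 and Creb1, the 10 uncalled genes with the smallest adjusted p, and up to 4 members of each pathway list by p. Values of a few list members are not reported here. The members and lists were chosen with earlier results of these data known. Coordinates are those of GRCm38. The replicate numbers paired the cortex libraries (correlations of same-numbered deviations from 0.129 to 0.649; the labels do not say what the numbers mark), and a fit with that block was added after seeing the data. The alternatives were other pseudocounts, filters and scalings, voom, no trend, a replicate block, a fit over 12 libraries and leaving out each library.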

Additional observations from a re-analysis of the deposited data

Results flagged for a closer look

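Samples far from the other 3 of their group were looked for in 198 groups of 4 libraries, and 15 were found, 8 with HDAC4CA and 7 with mCherry (chance flags about 1 in 20 groups). HDAC4CA library 1 was the lowest for Egr1 (1.76 RPKM, next 25.4) and Egr3 (0.359, next 10). HDAC4CA library 4 was the highest for Npas4 (1.21, next 0.388), Btg2 (4.64, next 2.28) and Creb1 (3.57, next 3.29). HDAC4CA library 3 was the lowest for Nrep (4.10, next 5.05) and Foxb1 (3.47, next 3.65), and library 1 the highest for Gabre (9.23, next 7.91). With mCherry, library 1 was the highest for Th (9.09, next 5.59) and Otp (12.5, next 11.6) and the lowest for Serpina3n (9.04, next 12.3). Library 3 was the highest for Cd44 (1.68, next 1.17) and Sik1 (5.34, next 4.64), library 2 for Kcna4 (4.85, next 4.37) and library 4 for Gal (20.7, next 17.4).

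A test of the difference itself parted the HDAC4CA effect in hypothalamus from that in another region for the named genes that follow (log2 difference, hypothalamus minus the other region, limma adjusted p under 0.05). Against thalamus these were Agrp (2.08), Npy (1.89), Kcna4 (0.64), Sst (0.62), Hdac9 (0.53), Wfs1 (0.45), Gabrb2 (0.36), Ptprn (-0.52), Hdac4 (-0.71), Cd44 (-0.98) and Gal (-1.20). Against cortex they were Ptk2b (0.92), Sst (0.82), Camk1g (0.68), Pld3 (0.42), Crtc1 (0.37) and Cd44 (-1.18).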

How the results depend on the processing

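The count of 21 called genes depended on the settings. It was 9 without the filter, 7 without trend and robust variances, 45 with a mean of 50 reads, 65 with voom on the recovered reads, and 93 in a fit over all 12 wild-type hypothalamus libraries. It ranged from 8 to 171 when libraries were left out, the highest without HDAC4CA library 1 and the others at 13 or below. No called named gene changed direction under any setting run, and 12 of the 16 stayed called without rescaling. The numbers did not pair the wild-type hypothalamus samples (correlations of same-numbered deviations from -0.0828 to 0.0412). With the replicate number as a block, 6 genes were called and Agrp, Hdac4 and Sst stayed among them. With the same block 160 genes differed in effect between hypothalamus and thalamus (258 without), 17 between HDAC4CA and CREB (35 without) and 0 were called in Sleepy hypothalamus at ZT12.5 (11 without; 5 with values as deposited).

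Leaving out libraries gave 166 to 297 genes for the difference from thalamus, 187 to 654 for that from cortex (654 without HDAC4CA cortex library 1), 9 to 211 for HDAC4CA against CREB (211 without HDAC4CA library 1), 2 to 5 for Sleepy hypothalamus at each time, and 0 to 1 for the difference between genotypes. For cortex, values as deposited gave 122 genes (89 higher, 33 lower) in place of 267 (147 and 120). With the replicate block in cortex, 951 genes were called in cortex (1034 without) and 224 differed in effect from hypothalamus (267 without). Nrep was then called in cortex (-0.37, adjusted p = 0.043, limma). Calls in cortex with and without the block were compared for the genes called in hypothalamus and for Camk1g, Pld3, Crtc1 and Cd44. Among these, only the call of Nrep changed. The cause was not tested except where fewer samples were fitted. Agrp, with about 10 reads or fewer in each cortex library, fell below the read filter in cortex alone.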
